A study of Mus musculus with 4 samples.

Results

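Blood mononuclear cells of SM/J mice were compared with those of BL/6 mice at 12 months of age, separately in lymphoid and in myeloid cells, to find which genes differed between the strains in both lineages and which in 1 lineage. Of 12299 cell barcodes deposited for the series, 6131 came from the 12-month mice and 5867 of these passed the cell filter, which asked for 500 or more UMIs from 200 or more genes, with mitochondrial transcripts at 10% or less. Lymphoid cells, B and T cells here, had at least 2 UMIs of Cd79a or at least 1 of Cd3e. Myeloid cells had at least 1 UMI of Csf1r and none of Cd79a or Cd3e. With a leading tag oligo also required, 4923 cells were members: 2330 lymphoid and 575 myeloid cells of BL/6, and 1603 lymphoid and 415 myeloid cells of SM/J.

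The study profiled peripheral blood of the inbred strains that its labels call BL/6 and SM/J, at 12 and 20 months, by droplet 3' single-cell RNA sequencing. Blood was drawn from the heart, mononuclear cells were taken from a Lymphoprep density gradient, and a slow spin and a lysis step reduced platelets and red cells. No treatment, transgene or induced mutation is named for either strain, and both ages of a strain were pooled into 1 10x run by tag oligos. Each strain therefore had 1 library at 12 months, in 3 tagged aliquots, and the labels do not say whether an aliquot was 1 mouse. The effect of strain cannot be told apart from that of the run, nor from how SM/J reads map to a mouse reference of another strain. No test across samples was possible: each ratio is given with its 95% counting interval, which covers counting error in these libraries only, and with its aliquots.

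B and T lymphocytes recognise antigen through clonal receptors, while blood monocytes are phagocytes that sense microbes and present peptides on major histocompatibility complex (MHC) molecules. Inbred strains each carry a fixed set of alleles, and several immune gene families, among them MHC genes, DNA sensors and natural killer receptors, are known to vary in copy number and sequence between them.

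The gates were checked with markers they did not use, leaving out Cd79a and Cd3e, which are at 0 in myeloid cells by construction. The other 6 B cell markers summed to 4496 CPM (counts per 1000000 UMIs) in BL/6 lymphoid cells and 3812 in SM/J, against 25.2 and 36.1 in myeloid cells, and the other 6 T cell markers to 591 and 503 against 13.4 and 5.28. The lymphoid gate took 68.1% of kept tagged cells in BL/6 (exact 95% interval 66.5 to 69.6) and 66.7% in SM/J (64.8 to 68.6). The myeloid gate took 16.8% (15.6 to 18.1) and 17.3% (15.8 to 18.8), so neither share differed beyond counting error. Within it, cells with a UMI of Ccr2, a receptor of classical monocytes, made up 52.7% in BL/6 and 40.2% in SM/J. Markers of nonclassical monocytes summed to 3007 and 4919 CPM there, and those of classical monocytes to 2833 and 2235. These shares were not thinned to a common depth. Median depth was 3834 UMIs in BL/6 and 4566 in SM/J lymphoid cells, and 7605 and 6270 in myeloid cells. Only 1 barcode was shared between the libraries.

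A gene was compared in a lineage when it reached 10 CPM in at least 1 strain with at least 30 UMIs over both. It was called past the fold when the strains differed at least 2-fold and no aliquot of one strain overlapped those of the other. In lymphoid cells 673 of 8219 genes were past the fold (8.19%), 345 higher in SM/J (4.20%) and 328 lower (3.99%). In myeloid cells 643 of 8115 were (7.92%), 370 higher (4.56%) and 273 lower (3.36%). The median log2 ratio of SM/J over BL/6 over all genes compared was -0.08 in lymphoid and 0.13 in myeloid cells. TMM scaling shifts every myeloid ratio by -0.16, and the myeloid split then becomes 246 higher and 377 lower, so the myeloid balance of higher against lower genes depends on the scaling.

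Of 7098 genes compared in both lineages, 103 were past the fold the same way in both and reached at least 0.25 times the level of the other lineage in the strain where they were higher (1.45%). These genes are called alike: 47 were higher in SM/J (0.662%) and 56 lower (0.789%). The higher ones had median log2 ratios of 2.03 in lymphoid and 2.55 in myeloid cells, the lower ones -1.72 and -1.76. The higher ones reached further: 10 of 47 exceeded 16-fold in both lineages, against 1 of 56 lower ones. A further 28 genes moved the same way at unequal levels, and 13 moved opposite ways. At the threshold, H2-Q7 (-1.01 and -1.76), Acyp2 (1.38 and 1.01) and Irf2bp1 (1.02 and 1.15) lay just inside, and Tmem241 (-0.93 and -0.97), Rsrp1 (0.89 and 0.88) and P4ha1 (0.91 and 0.86) just outside.

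**Figure D1:**
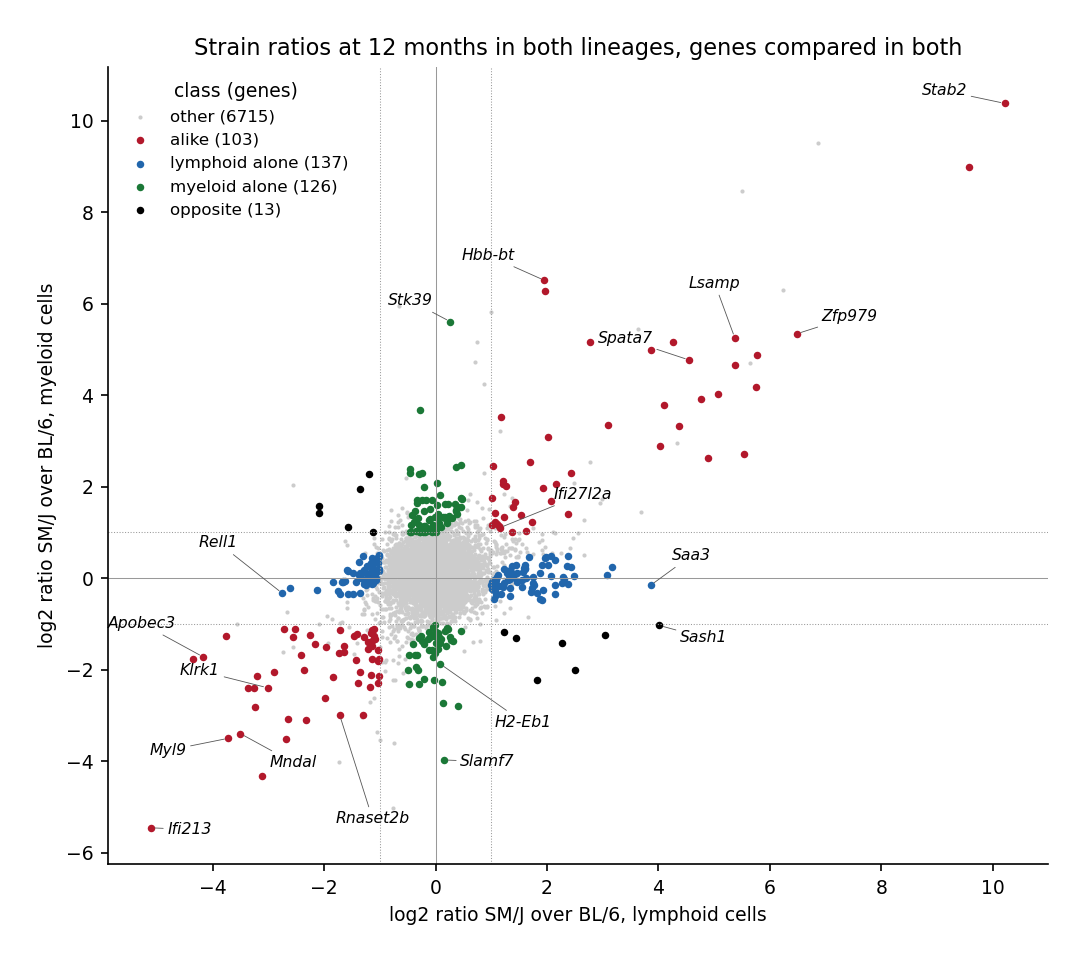
Log2 ratio of SM/J over BL/6 in lymphoid (x axis) and myeloid cells (y axis) for the genes compared in both lineages, 1 point a gene, with dotted lines at 2-fold; a strain with 0 UMIs was set to 3. Genes called alike lie past the dotted lines the same way in both lineages. Some are near the diagonal, such as Ifi213 (-5.11 and -5.46) and Stab2 (10.22 and 10.38), and others far from it, such as Hbb-bt (1.95 and 6.51) and Apobec3 (-4.17 and -1.72). Genes of 1 lineage lie along an axis, such as Saa3 (3.86 and -0.15) and Slamf7 (0.14 and -3.97).

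The alike gene with the largest ratio was Stab2, a scavenger receptor best known from sinusoidal endothelium (GRCm38, chr10:86841198-87008025, minus strand). Its lymphoid level was 0, 0.27 and 0.288 CPM in the BL/6 aliquots and 216, 209 and 223 in SM/J. In myeloid cells it was 0, 0 and 0.640 against 255, 270 and 298. The log2 ratios were 10.22 (8.37 to 13.27) and 10.38 (7.89 to 15.68), so BL/6 sat at 1 or 2 UMIs in each lineage while SM/J expressed the gene at a like level in both. Gm16271, a transcript that overlaps Stab2 on the other strand, had no UMI in BL/6 and was at least 54.0-fold higher in SM/J lymphoid and at least 18-fold higher in SM/J myeloid cells. Whether counting used the strand is not stated in these sources, so reads of the pair may be mixed.

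The following genes were also higher in SM/J in both lineages. Lsamp, a neuronal adhesion molecule, stood at 0.777, 0.810 and 0.576 CPM in BL/6 lymphoid cells and 19.5, 41.6 and 27.8 in SM/J, a log2 ratio of 5.37 (4.37 to 6.60). In myeloid cells it had no UMI in BL/6 and was at least 38.1-fold higher in SM/J. Dlg2, a synaptic scaffold, had log2 ratios of 4.27 (3.71 to 4.87) and 5.16 (3.90 to 6.81). Vmn2r96, annotated as a vomeronasal receptor, had 3.86 (3.63 to 4.10) and 4.99 (4.13 to 6.02), but 0.34 in the T gate (lymphoid cells with Cd3e and no Cd79a), on 30 and 26 UMIs. Spata7, a ciliary protein of photoreceptors, had 4.55 (4.16 to 4.97) and 4.77 (4.00 to 5.66), although 1 SM/J myeloid aliquot, at 141 CPM, stood above the other two at 47.1 and 51.9. The zinc finger gene Zfp979 had no UMI in BL/6 lymphoid cells, was at least 89.6-fold higher in SM/J there, and had a log2 ratio of 5.34 (3.42 to 8.43) in myeloid cells. Def8, a regulator of lysosome position, had 5.08 (4.58 to 5.61) and 4.02 (3.56 to 4.50). Ackr3, an atypical chemokine receptor that binds CXCL12, had 4.89 (4.23 to 5.63) and 2.64 (2.11 to 3.20). Without cells holding a UMI of Pf4 or Ppbp, platelet genes, its myeloid counts went from 37 and 153 UMIs to 1 and 4, too few to be compared, and in the T gate it was not compared either, with 0 and 9. Ifi27l2a, an interferon-induced gene, was higher by a small margin, 1.15 (1.08 to 1.23) and 1.10 (1.04 to 1.17), and the myeloid ratio becomes 0.94 under TMM scaling.

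The 56 genes lower in SM/J are described by function. The first group was the HIN-200 family of cytosolic DNA sensors. Ifi213 was at 24.1, 26.2 and 18.7 CPM in BL/6 lymphoid cells and 0.724, 0.645 and 0.638 in SM/J, and at 13.7, 13.8 and 13.4 against 0, 0 and 0.944 in myeloid cells. Mndal was at 281, 298 and 268 against 25.7, 27.4 and 21.7 in lymphoid cells, and at 185, 153 and 157 against 25.2, 6.22 and 17 in myeloid cells. Their log2 ratios were -5.11 (-6.57 to -3.97) and -5.46 (-10.78 to -2.93) for Ifi213, and -3.50 (-3.71 to -3.31) and -3.40 (-3.83 to -2.99) for Mndal. Mndal overlaps Ifi203 on the same strand in the annotation, so some of their reads may be shared. Members of the family went both ways. Of 11 compared in lymphoid cells, Ifi213 and Mndal included, 3 were higher and 5 lower, with a median of -0.97 (all genes: 4.20% and 3.99%). Of 10 in myeloid cells 1 was higher and 4 lower, with a median of -0.65 (all genes: 4.56% and 3.36%). Ifi202b had no UMI in BL/6 and was at least 45.0-fold higher in SM/J lymphoid and at least 351-fold higher in SM/J myeloid cells. Its SM/J level was 282, 179 and 197 CPM in myeloid but 8.33, 8.71 and 19.2 in lymphoid cells, so it falls outside the alike genes by its unequal level.

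Apobec3, a cytidine deaminase that restricts retroviruses, was lower as well. It was at 295, 310 and 296 CPM in BL/6 lymphoid cells and 15.6, 18.4 and 16 in SM/J, a log2 ratio of -4.17 (-4.42 to -3.93). In myeloid cells it was at 75.5, 78.9 and 80.0 against 27.1, 24.9 and 18.9, a ratio of -1.72 (-2.10 to -1.36). The aliquots did not overlap in either lineage, and the 2 counting intervals did not overlap either: the ratio was further from 0 in lymphoid cells. In the whole list of retroviral restriction genes and TRIM5 paralogs, 1 was higher and 2 lower of 16 compared in lymphoid cells (median -0.15), and 4 were higher and 1 lower of 16 in myeloid cells (median 0.59). Over all genes 4.20% were higher and 3.99% lower in lymphoid cells, and 4.56% and 3.36% in myeloid cells.

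Some genes of antigen presentation were also alike and lower. In lymphoid cells 3 of 18 class I and peptide-loading genes and 3 of 11 class II genes compared were lower (all genes: 3.99%). In myeloid cells 6 of 18 and 7 of 7 were (all genes: 3.36%). Ciita, the master transactivator of MHC class II genes, was at 110, 122 and 120 CPM in BL/6 lymphoid cells and 46.3, 53.9 and 56.2 in SM/J, and at 58.1, 49.9 and 57.0 against 9.69, 10.7 and 17.9 in myeloid cells. Nlrc5, the corresponding transactivator of class I genes, had log2 ratios of -1.15 (-1.35 to -0.95) and -1.13 (-1.45 to -0.82). Tap1, which carries peptides to class I molecules, had -1.21 and -1.39 (-1.67 to -1.12), and the class I gene H2-Q7 had -1.01 and -1.76. Without cells holding a UMI of Fras1 or Lmo7, which made up 3.78% of BL/6 and 31.9% of SM/J lymphoid cells, the lymphoid ratios of Ciita (-0.86), Nlrc5 (-0.69) and H2-Q7 (-0.86) were below 2-fold. In the T gate Nlrc5 (-0.70) and Tap1 (-0.94) were below it and Ciita was not compared. Also lower were 6 of the 11 genes of the Hist clusters (canonical histones) compared in both lineages (0.789% of all genes were alike and lower), among them Hist1h4d (-3.12 and -4.32) and Hist1h2bc (-1.84 and -2.16). Some genes known from platelets, picked after their values were seen, were lower: the chemokine Ppbp (-3.21 and -2.14), the receptor Clec1b (-2.36 and -2.01) and Gng11 (-2.41 and -1.68). Of 6 platelet markers, 2 were past the fold and lower in each lineage. The platelet marker Pf4 was at -0.06 in lymphoid cells and past the fold and higher, at 1.11, in myeloid cells. Natural killer receptor genes Klrk1 (-3.02 and -2.39) and Klrd1 (-1.39 and -2.29) were lower as well. Lymphoid Klrd1 was at -0.71 without Fras1 or Lmo7 cells, and neither gene was compared in the B gate (Cd79a and no Cd3e) or in myeloid cells without Ccr2.

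**Figure D2:**
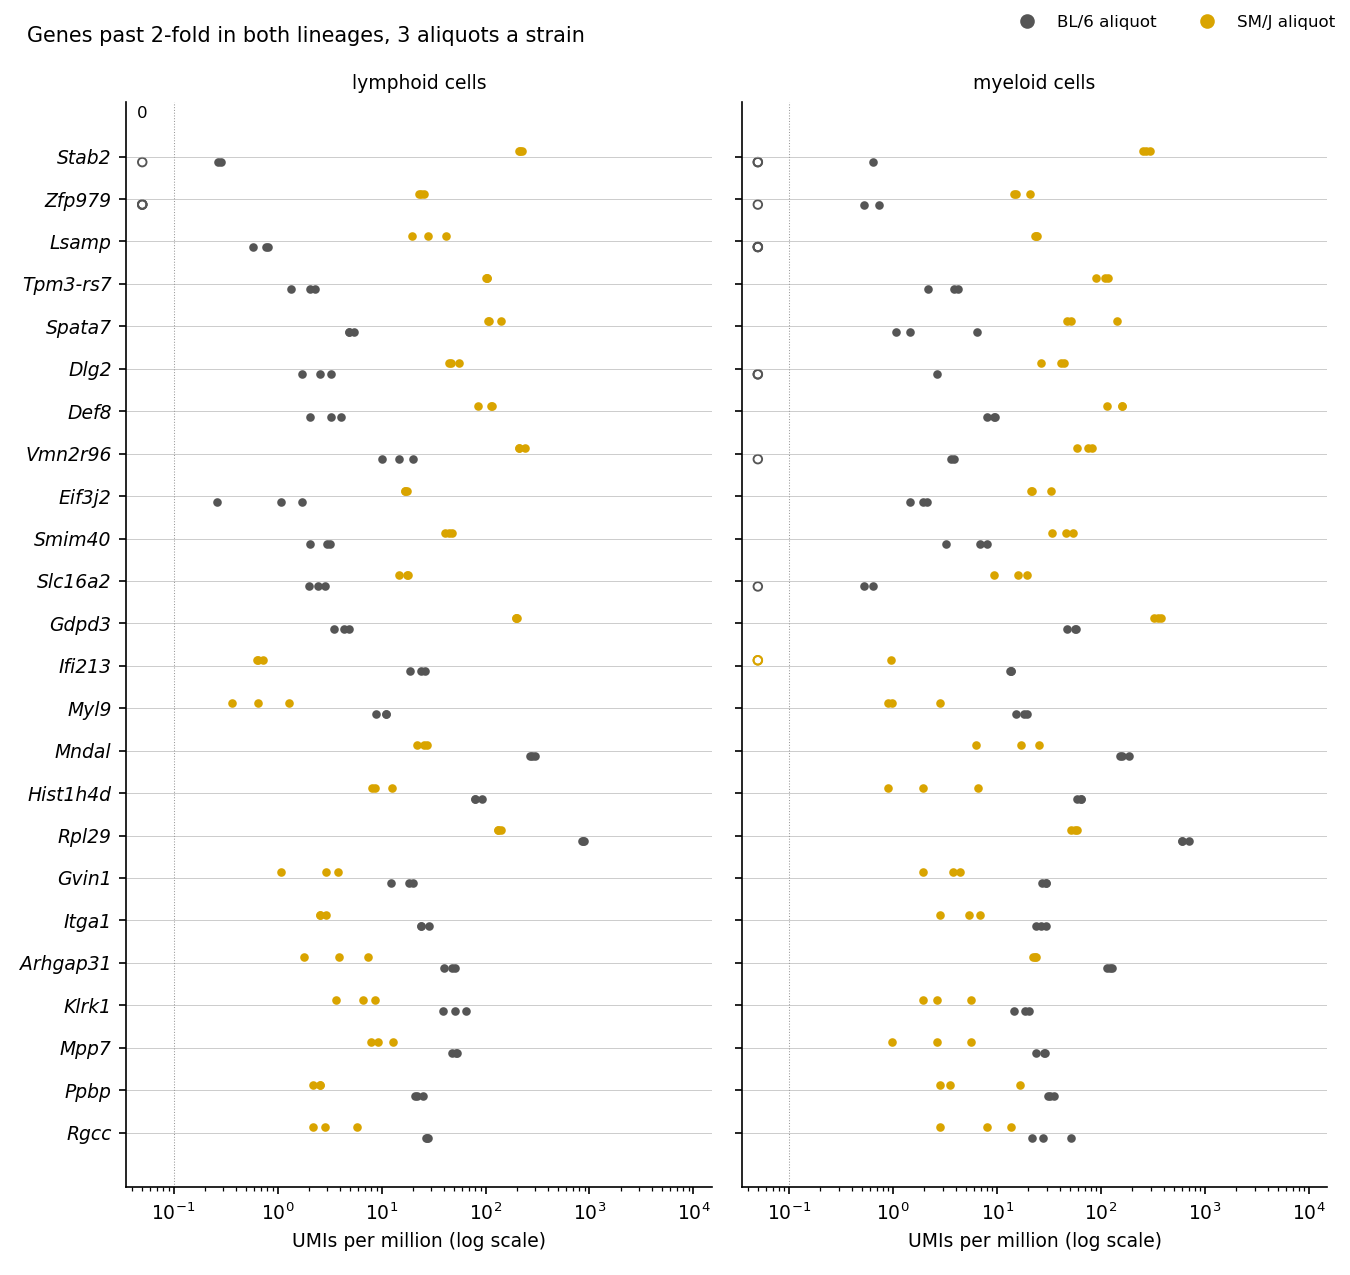
Level of leading alike genes in each of the 3 aliquots of each strain, in CPM on a log axis, in lymphoid (left) and myeloid cells (right); open circles are aliquots with 0 UMIs, set left of the axis break. In every gene drawn the aliquots of the strains are apart in both lineages, for example Mndal at 268 to 298 against 21.7 to 27.4 in lymphoid cells.

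Some of these genes mark other cells or cell fragments, whose markers also moved. The 7 natural killer markers summed to 210 CPM in BL/6 lymphoid cells (198 to 234 over aliquots) and 66.6 in SM/J (31.5 to 113), with 4 of 7 past the fold and lower, and to 66.3 (24.6 to 95) and 30.5 (0.969 to 84.0) in myeloid cells, where the aliquots overlapped and 1 SM/J aliquot held most of the sum. The 6 platelet markers summed to 98.8 and 56.9 in lymphoid cells but to 241 and 396 in myeloid cells, where Pf4 was higher (1.11, but -0.39 with a 5% mitochondrial limit) and Gp9 lower (-3.76, -6.07 to -2.14, with 3 UMIs in SM/J). Of the haemoglobin genes, Hba-a1 had log2 ratios of 1.97 and 6.27 and Hbb-bt 1.95 and 6.51. Hba-a2, a close copy of Hba-a1, was at -2.57 in lymphoid and 2.04 in myeloid cells, with overlapping aliquots in each. The 6 erythroid markers summed to 52.5 CPM in BL/6 myeloid cells and to 3023 in SM/J (766 to 6110 over aliquots). Slc4a1 was at 0 in myeloid cells of both strains. The 8 neutrophil markers summed to 217 CPM in BL/6 myeloid cells (148 to 384) and 802 in SM/J, where 1 aliquot stood at 2094 and the others at 89.7 and 123. S100a9 (3.87) and S100a8 (2.21) had overlapping aliquots, and Mmp8 (-1.56) was past the fold and lower. When only cells without a UMI of Pf4 or Ppbp were kept, 80 genes were alike, 70 of them among the 103. Gng11 was then at -2.08 and -0.66, Ppbp was lost by construction, and Clec1b, at -1.62 and -1.63, fell below the level compared. Without cells holding a haemoglobin UMI, 85 genes were alike, 71 of them among the 103. The part of these markers in the remaining ratios was not tested.

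The alike genes were followed in narrower gates of the same cells, which repeat the choice in part. In B cells (Cd79a at least 2, Cd3e none) 45 of 46 higher genes and 44 of 48 lower genes compared were past the fold the same way (all genes: 9.26%, with 4.98% higher and 4.28% lower). In T cells (Cd3e at least 1, Cd79a none) it was 25 of 39 and 38 of 48 (all genes: 8.39%, 2.36% and 6.03%). In the T gate 36 of the 39 higher genes had a ratio above 0; Hba-a1 (-1.83), Hbb-bt (-2.99) and Pepd (-0.22) had the other sign there. Among myeloid cells with Ccr2 it was 37 of 41 and 46 of 56 (9.43%, 5.46% and 3.97%), and without Ccr2 37 of 40 and 40 of 47 (7.58%, 4.22% and 3.36%). In B, T and myeloid cells together, 23 of 38 higher and 27 of 40 lower genes compared in all were past the fold in each, Stab2, Mndal and Apobec3 among them.

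Some alike genes share sequence at their transcript ends with other genes. Of 101 with annotated transcripts, 18 shared at least 20% of the 50-base words in their last 400 transcript bases with another gene (17.8%), against 353 of 7093 genes compared in both lineages (4.98%). Rnaset2a and Rnaset2b, ribonuclease genes that share 70.4% of these words, moved in opposite directions: Rnaset2a had log2 ratios of 1.63 and 1.03 (0.86 in myeloid cells under TMM scaling) and Rnaset2b -1.72 and -2.98. Gm11361 (5.38 and 4.66) shares 71.5% with the ribosomal protein gene Rps18, which was at -0.68 and -1.86, and Gm10260 (9.57 and 8.99) shares 45.0% with a pseudogene of it. Eif3j2 (4.10 and 3.78) shares 85.8% with Eif3j1 (-0.07 and 0.01). Rpl29 (-2.68 and -3.53) shares words with 82 genes, and Gvin1 (-2.65 and -3.07) all of them with Gm4070. Counts of such genes are uncertain, since reads may be split between copies differently for the 2 strains.

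Some alike genes were neighbours. Of 101 placed on GRCm38, 13 had another alike gene within the 5 nearest genes on either side (12.9%), against 232 of 6992 other genes compared (3.32%) that had one. They formed 6 runs: Ifi213 with Mndal on chromosome 1, Stab2 with Gm16271 on chromosome 10, the histone pairs Hist1h1d with Hist1h3e and Hist1h4d with Hist1h2bc on chromosome 13, Klrd1 with Klrk1 on chromosome 6, and Zfp979 with Zfp984 and Miip on chromosome 4. In the last run Zfp979 was higher in SM/J while Zfp984 (-1.98 and -2.61) and Miip (-1.28 and -1.29) were lower. In addition 34 of 101 overlapped another counted gene, 11 of them on the same strand. This was not counted for the other genes compared, so it cannot be read as a trait of the alike genes.

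Many genes of antigen presentation were lower in SM/J myeloid cells. All 7 class II genes compared in myeloid cells were lower in SM/J, with a median log2 ratio of -2.01. In lymphoid cells 3 of 11 were lower (Ciita, H2-Oa at -1.38 and H2-Eb2 at -2.07), with a median of -0.73. Among all genes compared 3.36% were lower in myeloid and 3.99% in lymphoid cells. H2-Aa, the alpha chain of the I-A molecule, stood at 1165, 1221 and 1285 CPM in BL/6 myeloid cells and at 243, 141 and 403 in SM/J, a ratio of -2.23 (-2.34 to -2.12). In lymphoid cells it stood at 2194, 2192 and 2240 against 1299, 1329 and 1361, a ratio of -0.73 (-0.76 to -0.70). H2-Eb1, a beta chain, was at 806, 908 and 891 against 193, 121 and 397 in myeloid cells (-1.88) and differed little in lymphoid cells (0.09, 0.06 to 0.11). Cd74, the invariant chain that chaperones class II molecules, was at -2.01 in myeloid and -0.49 in lymphoid cells, and the peptide exchange genes H2-DMa and H2-DMb1 were at -1.28 and -1.43 in myeloid and -0.10 and 0.00 in lymphoid cells.

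Among myeloid cells with Ccr2, 7 of 8 class II genes compared were past the fold and lower, with the highest ratio at 0.79 (all genes lower: 3.97%). Among those without, 6 of 7 were (all genes lower: 3.36%). H2-Aa had -1.87 with Ccr2 and -2.66 without. The myeloid gate does not hold monocytes alone: markers of cavity-type macrophages summed to 1076 CPM in BL/6 and 1671 in SM/J. Dendritic cell markers summed to 155 CPM in BL/6 myeloid cells (127 to 208) and 105 in SM/J (84.3 to 130), of which Bst2 gave 115 and 89.8. The other 6 summed to 39.7 (27.5 to 62.1) and 15.2 (6.78 to 24.9), and the 3 of them compared had ratios below 0, Siglech at -2.73, Cd209a at -1.82 and Flt3 at -1.17, with overlapping aliquots in each. B cell markers summed to 25.2 and 36.1, and the part of these cells in the class II difference was not tested. Of 18 class I and peptide-loading genes compared in myeloid cells, 6 were lower and none higher (median -0.78), led by H2-Q7, Tap1, Psmb9 (-1.37) and Psmb8 (-1.27), subunits of the immunoproteasome. The class I heavy chain gene H2-K1 was at 0.44. In lymphoid cells 3 of 18 were lower (median -0.18). Of all genes compared 3.36% were lower in myeloid and 3.99% in lymphoid cells.

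The guanylate-binding proteins and immunity-related GTPases, which attack the vacuoles of intracellular microbes and are induced by interferon gamma, were lower in SM/J myeloid cells in many members. In myeloid cells 8 of 13 compared were lower and 1 higher (median -1.33), against 3.36% of all genes lower and 4.56% higher. In lymphoid cells 1 of 10 was lower, Gvin1 (median -0.29), against 3.99% of all genes. Gbp2 was at 83.9, 63.0 and 73.0 CPM in BL/6 myeloid cells and 10.7, 19.6 and 17 in SM/J, a ratio of -2.23 (-2.68 to -1.80), and at -0.03 in lymphoid cells. Igtp was at -1.58 (-2.17 to -1.02) and -0.06, but at -0.87 in myeloid cells without platelet UMIs. Iigp1 had the largest ratio, -4.44 (-5.91 to -3.29), but its BL/6 aliquots ranged from 14.5 to 64.0. Gbp9 went the other way, at 1.01, and falls to 0.85 under TMM scaling. Gbp2b, at -1.97, was at 5.64 in myeloid cells with Ccr2, on 1 and 26 UMIs, and at 2.97 without cells holding platelet UMIs, on 4 and 27. The list of type I interferon response genes did not follow: 8 of 34 were higher and 2 lower in myeloid cells (median 0.31), led by Ifi44 at 9.51 (7.03 to 14.82), where BL/6 had 1 UMI. In lymphoid cells 4 of 19 were higher (median -0.03), against 4.20% of all genes. Under TMM scaling 4 of the 8 fall below 2-fold: Ifi27l2a, Ifit3 (0.85), Oas3 (0.88) and Rtp4 (0.92).

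Because class II and interferon-induced genes are each known to be read from short promoter motifs, the 150 bases before the start of 8 of these genes are shown, as RefSeq gives them for GRCm38.p6, the reference strain; the SM/J sequence was not analysed here. Capitals mark an interferon-response motif, GAAA repeated with any 2 bases between or its reverse complement, in the first 4 genes, and CTGATTGG or its reverse CCAATCAG, the Y box of MHC promoters, in the last 4. Both strands were searched, and the motifs do not overlap in these windows. The 8 genes were picked by hand and each holds 1 match, so they do not show how common a match is in their groups.
Ifi213 (chr1:173599273-173599422, minus strand): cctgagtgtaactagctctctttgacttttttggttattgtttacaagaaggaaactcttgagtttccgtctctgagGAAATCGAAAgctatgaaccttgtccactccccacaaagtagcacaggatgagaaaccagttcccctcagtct
Apobec3 (chr15:79892258-79892407, plus strand): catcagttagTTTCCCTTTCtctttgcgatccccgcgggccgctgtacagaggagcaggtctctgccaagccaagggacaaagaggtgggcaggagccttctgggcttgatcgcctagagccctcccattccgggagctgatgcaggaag
Gbp2 (chr3:142620513-142620662, plus strand): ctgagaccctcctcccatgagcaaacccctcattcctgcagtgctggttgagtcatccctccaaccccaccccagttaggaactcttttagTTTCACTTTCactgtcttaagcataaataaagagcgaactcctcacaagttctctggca
Igtp (chr11:58199406-58199555, plus strand): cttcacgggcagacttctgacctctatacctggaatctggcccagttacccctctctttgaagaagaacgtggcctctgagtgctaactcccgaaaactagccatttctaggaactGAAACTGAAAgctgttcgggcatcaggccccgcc
H2-Aa (chr17:34287824-34287973, minus strand): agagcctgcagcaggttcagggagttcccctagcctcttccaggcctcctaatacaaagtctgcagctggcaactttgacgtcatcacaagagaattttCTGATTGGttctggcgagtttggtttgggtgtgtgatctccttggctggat
H2-Eb1 (chr17:34305717-34305866, plus strand): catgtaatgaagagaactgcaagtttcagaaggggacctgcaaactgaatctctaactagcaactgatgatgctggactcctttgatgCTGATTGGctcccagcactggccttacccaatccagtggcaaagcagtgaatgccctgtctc
H2-Q7 (chr17:35439005-35439154, plus strand): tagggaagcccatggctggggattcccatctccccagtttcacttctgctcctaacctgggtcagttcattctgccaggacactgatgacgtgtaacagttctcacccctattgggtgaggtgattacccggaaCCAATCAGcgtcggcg
Psmb9 (chr17:34187331-34187480, minus strand): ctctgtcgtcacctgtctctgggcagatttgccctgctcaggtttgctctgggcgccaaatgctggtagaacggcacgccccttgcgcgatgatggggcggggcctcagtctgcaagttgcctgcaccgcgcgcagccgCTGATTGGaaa
The RefSeq start of Apobec3 lies 749 bases from the start of the counted gene, and that of Psmb9 434 bases. In the 250 bases before the start, the interferon-response motif was found in 3.05% of 27025 promoters, in 2.87% of those of 5716 genes compared in both lineages, in 3 of 36 alike lower genes with a promoter (8.33%: Mndal, Apobec3 and Ifi213) and in 0 of 33 alike higher ones. It was found in 5 of 62 genes higher in lymphoid cells alone (8.06%, Saa3 and Isg15 among them) and 2 of 48 lower there (4.17%), and in 1 of 62 higher in myeloid cells alone (1.61%) and 2 of 40 lower there (5%). The Y box was found in 4.09% of all promoters, in 5.28% of those of genes compared in both lineages, in 7 of 36 alike lower genes (19.4%: H2-Q7 and Tap1 of antigen presentation, and Abcb1b, Nrgn, Osbpl3, Ubb and Zfp950), in 0 of 33 alike higher ones, in 4 of 40 genes lower in myeloid cells alone (10%) and 2 of 62 higher there (3.23%), and in 1 of 48 genes lower in lymphoid cells alone (2.08%) and 4 of 62 higher there (6.45%). A match is a description of these letters and not evidence of binding.

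**Figure D3:**
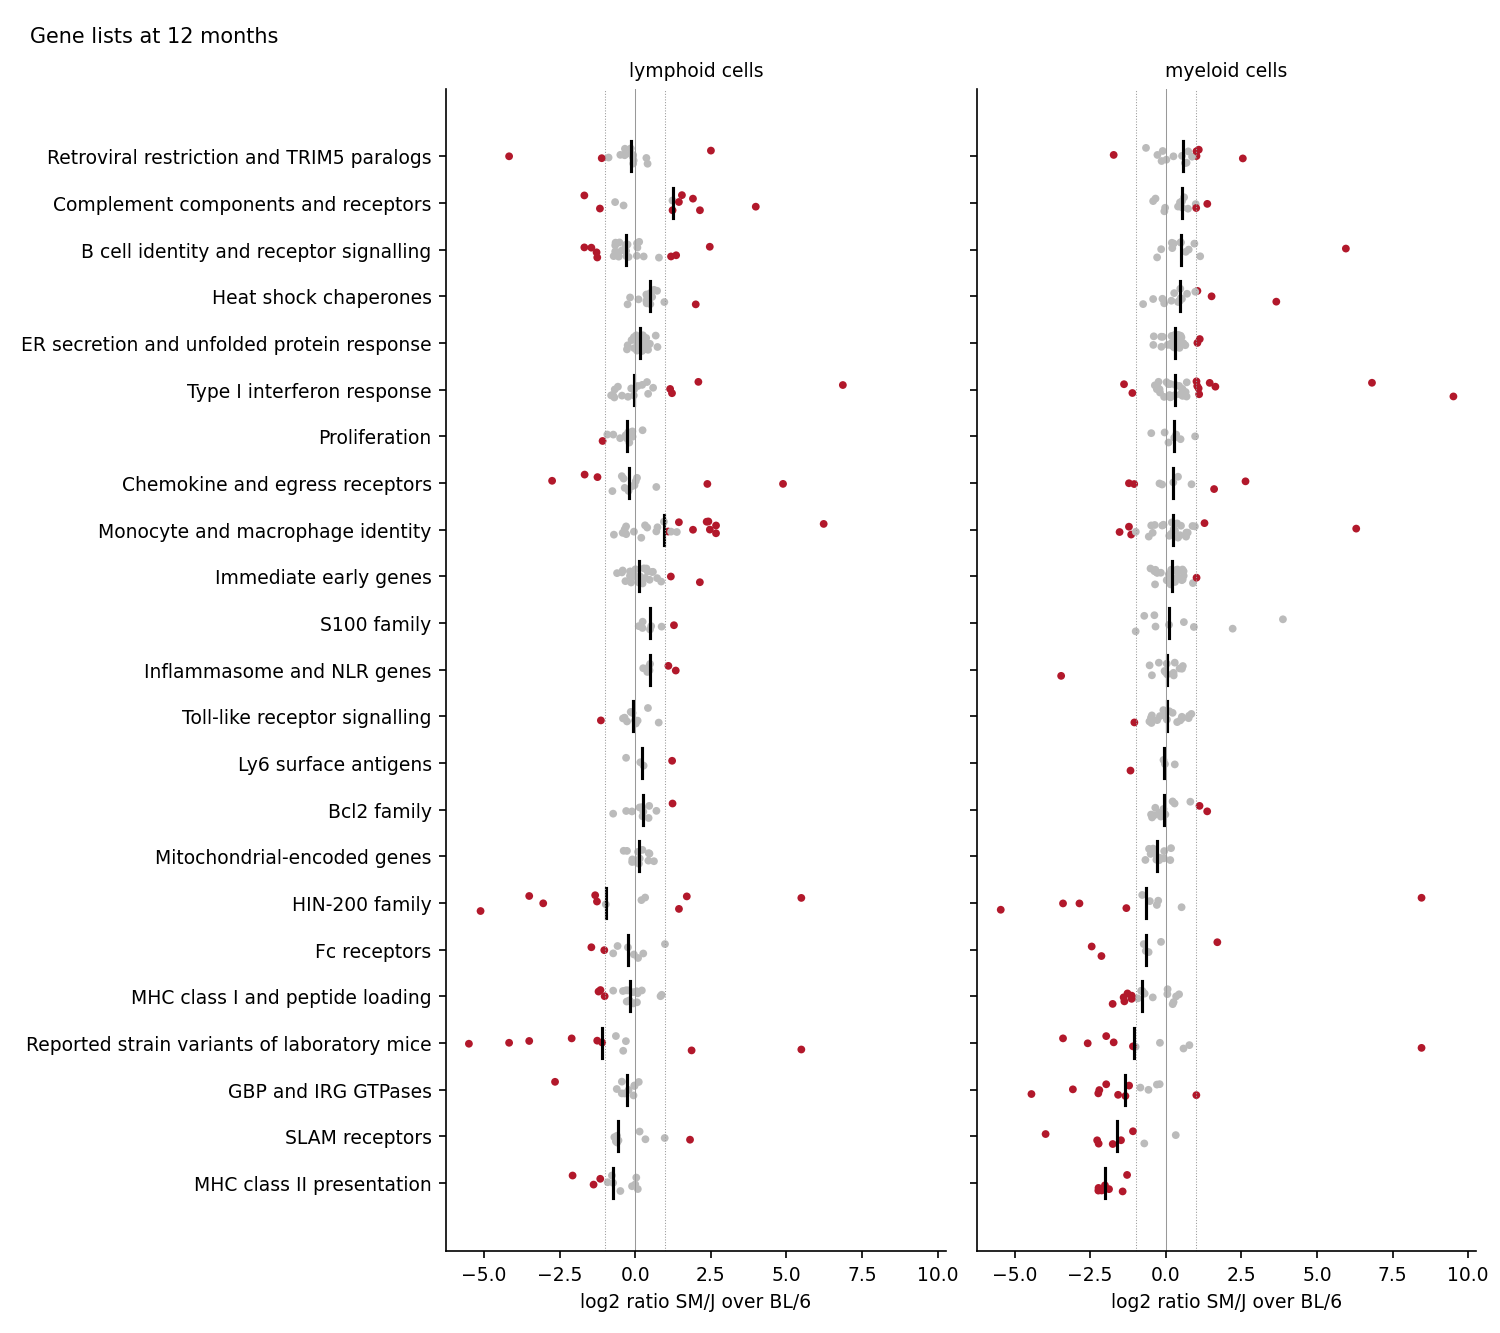
Log2 ratio of SM/J over BL/6 of the members of most of the gene lists in lymphoid (left) and myeloid cells (right), 1 point a gene, red where past the fold, with a black bar at each median and dotted lines at 2-fold. The class II genes sit between -2.23 and -1.28 in myeloid cells, while their lymphoid median is -0.73.

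Genes past the fold in 1 lineage, with a log2 ratio under 0.5 either way in the other and ratios at least 1 apart, numbered 137 in lymphoid cells (1.93%; 76 higher, 1.07%, and 61 lower, 0.859%) and 126 in myeloid cells (1.78%; 78 higher, 1.10%, and 48 lower, 0.676%). These splits also moved with the scaling, to 92 and 37 in lymphoid and 37 and 95 in myeloid cells under TMM. In myeloid cells alone, Slamf7, a receptor of the SLAM family of leukocyte contact receptors, was at 36.4, 42.7 and 39.0 CPM in BL/6 and 3.87, 1.78 and 1.89 in SM/J, a ratio of -3.97 (-5.21 to -2.97), and at 0.14 in lymphoid cells. Of the 8 SLAM family genes compared in myeloid cells 6 were lower (median -1.62; all genes: 3.36%). In lymphoid cells 1 of 9 was higher and none lower (median -0.55, with 4.20% and 3.99% over all genes). Ctsc, the protease that activates granule serine proteases, was at 451, 439 and 501 CPM against 61.0, 70.2 and 69.9 in myeloid cells (-2.79) and at 0.41 in lymphoid cells. Stk39, a kinase of ion transport, was at 2.11, 0 and 0.640 against 35.8, 55.1 and 59.5 in myeloid cells, a ratio of 5.61 (4.36 to 7.25), and at 0.27 in lymphoid cells. Cmah, an enzyme of sialic acid synthesis, was higher at 2.44 (2.16 to 2.73), and the Arf GTPase activator Acap1 at 3.69 (2.56 to 5.06).

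Cd22, a B cell lectin that dampens antigen receptor signals, was higher in SM/J myeloid cells but not in SM/J lymphoid cells. Its myeloid level was 6.34, 8.68 and 4.48 CPM in BL/6 aliquots and 381, 422 and 388 in SM/J, a log2 ratio of 5.96. In lymphoid cells it was 158, 156 and 161 against 97.7, 103 and 99.3, a ratio of -0.66. SM/J myeloid cells therefore had a higher Cd22 level in CPM than SM/J lymphoid cells, while the 7 B cell markers together stood at 36.1 CPM in them. The ratio was 7.36 among myeloid cells with Ccr2 and 5.31 among those without. Nlrp1b, an inflammasome sensor, went the other way in myeloid cells, at 75.0, 91.9 and 81.9 against 9.69, 7.11 and 5.66 CPM (-3.46).

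In lymphoid cells alone, the lower genes were led by Rell1, a TNF receptor superfamily relative, at 110, 111 and 105 CPM in BL/6 and 14.8, 20.6 and 12.8 in SM/J, a ratio of -2.75 (-3.01 to -2.50), against -0.33 in myeloid cells. Ssbp2, a single-strand DNA binding factor, was at -2.62 and -0.21, and Lrrk2, a kinase known from Parkinson's disease, at -1.84 and -0.09; Lrrk2 was at 0.55 in the T gate, against -1.92 in the B gate. Among lower genes 54 of 57 compared were past the fold in the B gate and 22 of 52 in the T gate (all genes lower: 4.28% and 6.03%). The B gate repeats the choice in large part, since it holds 1922 of the 2330 BL/6 and 1269 of the 1603 SM/J lymphoid cells. Of the 61 lower genes, 24 were still past the fold without cells holding a UMI of Fras1 or Lmo7.

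The genes higher in lymphoid cells alone were led by Saa3, an acute-phase apolipoprotein, at 66.8, 15.9 and 16.4 CPM in BL/6 and 522, 501 and 460 in SM/J, a ratio of 3.86 (3.71 to 4.02), where 1 BL/6 aliquot stood above the other two. In myeloid cells its aliquots overlapped, at 628, 360 and 959 against 497, 810 and 454. Many of these genes had more RNA in the myeloid cells: 34 of 76 stayed under 0.25 times the myeloid level. Of the 23 monocyte and macrophage identity genes compared in lymphoid cells, 9 were higher and none lower (median 0.95), against 4.20% and 3.99% of all genes. Among the 9 was Cd36 (2.36, with 0.26 in myeloid cells). Others of the 9 were not differences of 1 lineage: Ear2 was at 2.67 and 1.28 and Treml4 at 1.91 and 0.96. Of 11 complement genes compared in lymphoid cells 6 were higher and 2 lower (median 1.23), against 4.20% and 3.99% of all genes. In myeloid cells 2 of 13 were higher and none lower (median 0.54), against 4.56% and 3.36%. C1qa was at 2.14, with 0.99 in myeloid cells, and C1qb at 1.54, with -0.05. Both are among 7 markers of cavity-type macrophages, which summed to 75.2 CPM in BL/6 lymphoid cells (51.3 to 115 over aliquots) and 182 in SM/J (129 to 271), and to 1076 (593 to 1351) and 1671 (1089 to 2457) in myeloid cells. C1qa was at 29.4 to 72.6 CPM in SM/J lymphoid and 325 to 662 in SM/J myeloid cells. Cells with a Csf1r UMI made up 2.53% of BL/6 and 3.49% of SM/J lymphoid cells, and without them 23 of the 76 higher genes no longer reached the level compared, while 51 of the 53 that did, which had to stay high in SM/J to do so, were past the fold. In the B gate, which repeats the choice in large part, 71 of 74 compared were past it (all genes higher: 4.98%). In the T gate 9 of 53 were, with 3 the other way (all genes: 2.36% higher and 6.03% lower), and 45 of 69 were without Fras1 or Lmo7 cells. The part of free RNA or of doublets in these values was not tested. Of 27 B cell identity genes compared in lymphoid cells 3 were higher and 4 lower (median -0.31), against 4.20% and 3.99% of all genes. The lower ones included Cr2, the complement receptor of mature B cells, at -1.68 (-1.88 to -1.48), and Fcer2a, the low-affinity IgE receptor, at -1.45 (-0.81 without Fras1 or Lmo7 cells), and the higher ones Zbtb32 (2.47), a transcriptional repressor.

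**Figure D4:**
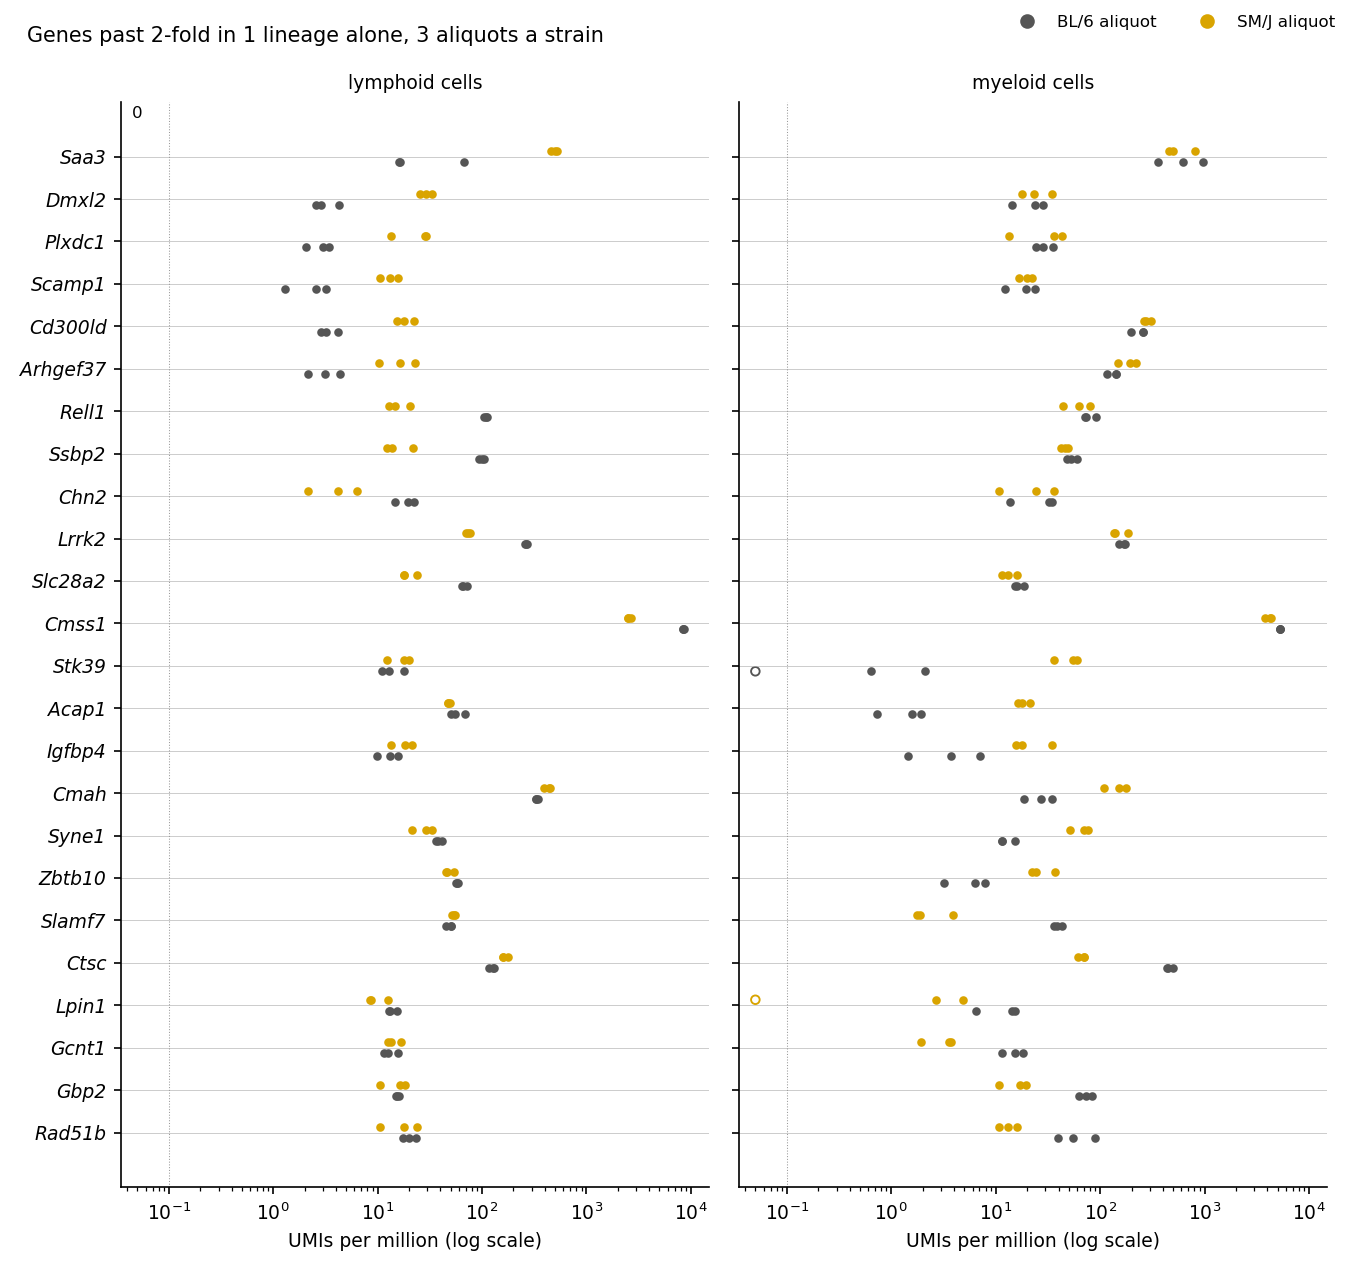
Level of the leading genes of 1 lineage alone in each of the 3 aliquots of each strain, in CPM on a log axis, in lymphoid (left) and myeloid cells (right); open circles are aliquots with 0 UMIs. The upper 12 genes are apart in lymphoid cells and close or mixed in myeloid cells, as Saa3 is, and the lower 12 the reverse, as Stk39 is.

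Genes of energy supply and translation were set beside the shares of all genes past the fold. These shares were 4.20% higher and 3.99% lower in lymphoid cells, and 4.56% and 3.36% in myeloid cells. None of 77 nuclear oxidative phosphorylation subunits was past the fold in lymphoid cells (median 0.15, 63 above 0), and 1 was lower in myeloid cells (median -0.36, 73 below 0). In the B gate 66 of the 77 were above 0, but in the T gate 38 were above and 39 below it (median -0.0036). Of the cytosolic ribosomal proteins, 1 of 81 was lower in lymphoid cells (median 0.42, 76 above 0) and 3 of 82 in myeloid cells (median -0.51, 78 below 0), the negative myeloid medians becoming more so by the scaling shift given above. Among genes of the list of strain variants reported for laboratory mice, 2 were higher and 6 lower of 11 compared in lymphoid cells (all genes: 4.20% and 3.99%). In myeloid cells 1 was higher and 5 lower of 10 (all genes: 4.56% and 3.36%). Outside those described, Klrb1c was at -5.50 (-8.56 to -3.61, with 2 UMIs in SM/J) and Ahr at -2.10 in lymphoid cells (-0.12 in the T gate, on 27 and 17 UMIs), and Il3ra at -2.58 in myeloid cells. Ptprc, which encodes CD45, was at -0.40 in lymphoid and 0.59 in myeloid cells.

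The 20-month cells of the same 2 runs were a second set of cells on the same design, with the same confounding of strain and run. Of the alike genes compared there in both lineages, 23 of 41 higher and 28 of 44 lower genes were past the fold the same way in both (all genes: 5.13%, with 2.46% higher and 2.68% lower). In lymphoid cells no alike gene was past it the other way, and in myeloid cells 1 was, H2-Q7, at -1.76 at 12 months and 1.67 at 20. Stab2 (9.20 and 8.70), Mndal (-4.03 and -3.52) and Apobec3 (-3.30 and -1.82) were past the fold the same way at both ages. Lymphoid Apobec3 had a ratio nearer 0 than at 12 months, while both Stab2 ratios lay inside their 12-month counting intervals. Eif3j2 (0.46 and 0.18) and Hba-a1 (0.29 and -0.06) were not past it at 20 months. Of the genes of lymphoid cells alone, 44 of 67 higher and 49 of 59 lower were past the fold the same way in 20-month lymphoid cells, with 9 and 1 past it the other way (all genes: 23.8%, with 8.98% higher and 14.8% lower). Of those of myeloid cells alone it was 18 of 67 and 8 of 45 in myeloid cells, with 5 and 4 the other way (all genes: 16.7%, with 10.4% higher and 6.35% lower). The same class was met at 20 months by 13 of 67 higher and 14 of 57 lower genes of lymphoid cells alone (all genes: 5.30%, with 1.98% higher and 3.32% lower), and by 5 of 65 and 3 of 42 of myeloid cells alone (2.17%, 1.41% and 0.755%). The class II ratios were nearer 0 at 20 months, with H2-Aa at -0.79 in myeloid and 0.13 in lymphoid cells. Iigp1 and Gm4951, lower at 12 months (-4.44 and -2.20), were higher at 20 months in myeloid cells (5.65 and 6.50).

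**Figure D5:**
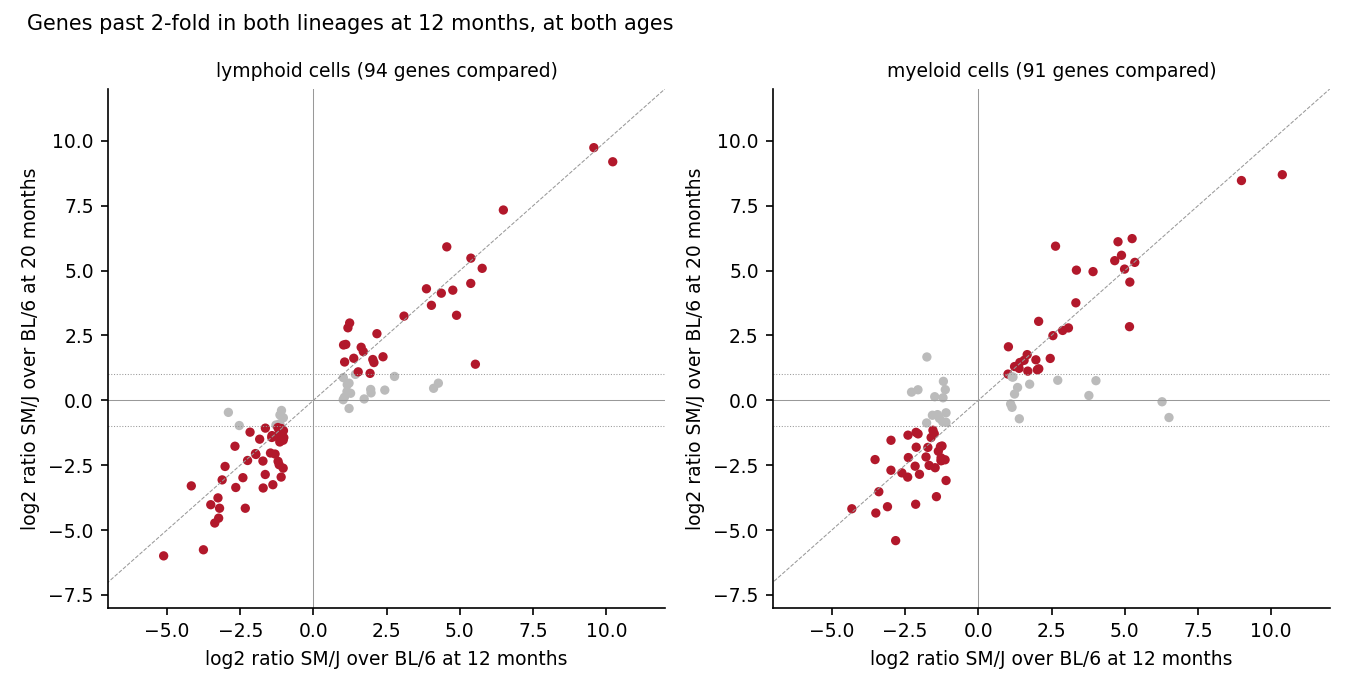
Log2 ratio of SM/J over BL/6 at 12 months (x axis) and 20 months (y axis) for alike genes compared at 20 months, 1 point a gene, in lymphoid (left, 94 genes) and myeloid cells (right, 91 genes); red points are past the fold the same way at 20 months, the dashed line marks equal ratios and dotted lines mark 2-fold. Stab2 lies at 10.22 and 9.20 in lymphoid cells, while grey points such as Eif3j2 (4.10 and 0.46) lie near 0 at 20 months.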

How the data were processed

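UMI counts per gene and cell were used as deposited by the authors, as filtered 10x count matrices of 4 cell sets (2 strains, 2 ages) that also hold tag oligo counts. Per the file headers they come from Cell Ranger 7.0.1, and the submitters' processing notes name Seurat 4.3.0 and mm10. No strand or intron setting is given in the sources used here.

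Cells were filtered and gated as stated above, given to the tag with the most UMIs (17 BL/6 and 24 SM/J cells had none leading and were left out), and summed per tag and strain. Levels are CPM of those sums. Ratios have exact conditional binomial 95% intervals, and a strain at 0 was set to 3 UMIs over the group. The members and lists were chosen with earlier results of these data known. The text names alike genes with the largest smaller ratio of the 2 lineages, one-lineage genes with the largest ratio, and members of 26 gene lists past the fold; 2 genes past the fold are counted in their lists but not reported here by name; others named, such as threshold, platelet, copy and neighbour genes, were chosen after their values were seen. GENCODE vM21 gave coordinates for 32158 of 32285 identifiers. Scrublet, with an expected rate of 0.06, marked 41 BL/6 and 21 SM/J cells, kept in the values given. The procedure, tested on simulated data, put all 200 changed genes in their class. The simulation drew counting error alone, left out the level condition of alike genes, and used changes larger than 2-fold in genes well above the level minimum. Changed genes near these limits were not simulated. Tools were Python 3.11.15, numpy 2.4.6, scipy 1.17.1, pandas 2.3.3, scanpy 1.11.5, matplotlib 3.10.9, R 4.3.3 and edgeR 4.0.16, the last for TMM factors alone. Alternatives covered scaling, filters, gates, doublets and single aliquots.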

Additional observations from a re-analysis of the deposited data

Results flagged for a closer look

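A total of 13 genes were past 2-fold in both lineages but in opposite directions, with the aliquots of the strains apart in each; that the lineages differ was not tested. Higher in SM/J lymphoid and lower in SM/J myeloid cells were 7 genes, given as log2 ratios of SM/J over BL/6 in lymphoid and then myeloid cells: Slamf9, a SLAM family receptor, at 1.81 and -2.22, and Ifi204, a DNA sensor of the HIN-200 family, at 1.45 and -1.30. Ly6a, which encodes Sca-1, had 1.22 and -1.17, and St3gal5, a sialyltransferase of ganglioside synthesis, had 2.27 and -1.43. Sash1 had 4.02 and -1.03, Stxbp6 had 3.03 and -1.23, and Nrg2 had 2.50 and -2.0. The other 6 were lower in SM/J lymphoid and higher in SM/J myeloid cells. Kynu, an enzyme of tryptophan breakdown, had -1.57 and 1.13, and Il12rb2, a chain of the interleukin 12 receptor, had -2.09 and 1.42. Itgb3, an integrin chain of platelets, had -1.12 and 1.00, Tspan2 had -1.36 and 1.95, Rcn3 had -2.09 and 1.59, and Arsb had -1.19 and 2.27. Under TMM scaling the myeloid ratios of Kynu (0.96) and Itgb3 (0.84) were below 2-fold. Nrg2 was at -0.28 in the B gate in place of lymphoid cells, Kynu at 0.55 in the T gate, on 3 UMIs in each strain, and Stxbp6 at 1.02 in myeloid cells without Ccr2.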

How the results depend on the processing

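Counts are given for lymphoid cells, myeloid cells, genes alike, lymphoid alone and myeloid alone, against 673, 643, 103, 137 and 126 as reported. A level minimum of 25 CPM gave 336, 392, 58, 61 and 59, and no minimum gave 2195, 1393, 266, 439 and 401. A fold of 1.5 gave 1660, 1583, 231, 250 and 246, and a fold of 4 gave 200, 185, 36, 20 and 18. Myeloid cells with Ccr2 gave 227 genes of myeloid cells alone, and cells with no haemoglobin UMI gave 206. Leaving out 1 aliquot at a time gave 629 to 715, 671 to 720, 96 to 113, 114 to 152 and 129 to 161. The other alternatives, among them both scalings, mitochondrial limits, doublets left out and the B and T gates, kept each count within 1.5 times, but not its genes: with the T gate in place of lymphoid cells 84 genes were alike, 55 of them shared with the 103, and with TMM scaling 10 of the 103 were not past the fold, Ifi27l2a, Fcgr2b and H2-Q7 among them. Median-of-ratios scaling gave 262 higher and 368 lower myeloid genes. A 5% mitochondrial limit gave 100 higher and 37 lower genes of lymphoid cells alone. The filters on platelet and haemoglobin UMIs, and a level condition on genes of 1 lineage (101 and 123 genes), were chosen after seeing the data.

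Over the genes named by the rule and those named after their values were seen, 5083 alternative values gave 4465 of the same size and side, 595 that moved and 23 that changed sign. In the T gate these were Bach2 (0.40), Casp4 (-0.60), Cd55 (0.53), Dusp1 (-0.074), Hba-a1 (-1.83), Hbb-bt (-2.99), Il18 (-2.45), Irak3 (0.73), Kynu (0.55), Lrrk2 (0.55), Pepd (-0.22), Trim34a (0.19) and Wdfy1 (-0.49). Casp4 was at -0.039 without Fras1 or Lmo7 cells, Itga1 at 0.26 in the B gate and 0.20 in myeloid cells without Ccr2, and Nrg2 at -0.28 in the B gate. In myeloid cells Gbp2b was at 2.97 and Rad51b at 0.49 without platelet UMIs, Gbp2b at 5.64 with Ccr2, Ifit3 at -0.80 and Stxbp6 at 1.02 without Ccr2, and Pf4 at -0.39 with the 5% mitochondrial limit. The cause of these changes was not tested. Depth sets the counting intervals and also bears on which cells pass a gate and which genes are compared. No paired analysis was possible because the labels give the 2 strains no shared replicate number and each strain has 1 library.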

Other observations

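Heat shock chaperones and immediate early genes are known to respond to handling. Over all genes 4.20% were past the fold and higher in SM/J lymphoid cells and 4.56% in SM/J myeloid cells. Of 15 chaperone genes compared in lymphoid cells 1 was higher in SM/J, Hspb1 (2.00), with a list median of 0.48, and of 17 in myeloid cells 3 were higher: Hspa1b (3.65), Hspa1a (1.51) and Hspa5 (1.05), with a median of 0.46. Of 26 immediate early genes in lymphoid cells 2 were higher, Atf3 (2.14) and Dusp1 (1.18), with a median of 0.14, and of 27 in myeloid cells 1 was, Nfkbia (1.02), with a median of 0.20. Under TMM scaling Hspa5 (0.88) and Nfkbia (0.85) fall below 2-fold, and in the T gate Atf3 (0.02) and Dusp1 (-0.074) did.

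Some surface receptor genes were past the fold. The shares of all genes were 4.20% higher and 3.99% lower in lymphoid cells, and 4.56% and 3.36% in myeloid cells. Of 7 Fc receptor genes compared in myeloid cells, Fcgr4 (-2.45) and Fcgr2b (-2.13) were lower in SM/J and the neonatal receptor gene Fcgrt (1.70) was higher. In lymphoid cells 2 of 9 Fc receptor genes were lower and none higher. Of 15 chemokine and egress receptors in lymphoid cells, Ackr3 (4.89) and Ccr1 (2.38) were higher and Cxcr6 (-2.75), Ccr9 (-1.67) and Cxcr3 (-1.25) lower, and of 9 in myeloid cells Ackr3 (2.64, and not compared without cells holding a platelet UMI) and Cxcr4 (1.60) were higher and Ccr2 (-1.22) and Gpr183 (-1.04) lower. Among 27 B cell identity genes in lymphoid cells, Zbtb32 (2.47), Bhlhe41 (1.35) and Cd24a (1.18) were higher and Cr2, Fcer2a, Cd72 (-1.28) and Bach2 (-1.26) lower. Without Fras1 or Lmo7 cells Bhlhe41 (0.69), Cd24a (0.39), Cd72 (-0.68), Bach2 (-0.75) and Cxcr3 (-0.59) were below 2-fold, as were Cxcr6 in the B gate (-0.24) and Ccr9 in the T gate (-0.66). Plasma cell markers summed to 527 CPM in BL/6 lymphoid cells and 1046 in SM/J, with 2 of 6 past the fold and higher.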
